A study of Sus scrofa with 14 samples.

Results

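The pig mammary gland at day 20 of lactation (L20) was compared with the gland at day 0 of lactation (L0) by single-nucleus RNA sequencing. The comparison used 4 of the 10 gland libraries of the series, L20 replicates 1 and 2 and L0 replicates 1 and 2, each made from frozen tissue of 1 sow. All sows were multiparous and in their second breeding cycle, on a standard diet, and the tissue came from the same position on the right side. The labels name no treatment or genetic change, and breed and age are not given in the labels. Other libraries of the series came from day 90 of gestation (G90) and from days 2 and 7 of natural involution (PI2 and PI7), and 2 libraries came from milk cells. Unique molecular identifiers (UMIs), which count RNA molecules, were summed per library over nuclei with at least 300 genes. This kept 11477 and 9413 nuclei at L0 and 12927 and 15323 at L20, 49140 of the 127926 nuclei of the 10 glands. Apart from the sum over all nuclei, a sum was made over stromal nuclei. These carried at least 2 UMIs over DCN, COL1A1, COL1A2, PTPRB, MMRN1 and RGS5 and no UMI of EPCAM, and 8316 of the 49140 nuclei met this rule.

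Milk is made by luminal cells of the alveoli, which secrete caseins, alpha-lactalbumin, lactose and fat under the control of prolactin, glucocorticoids and the transcription factor STAT5. Contractile myoepithelial cells surround the alveoli. The stroma around them holds fibroblasts, which build the collagen matrix, blood and lymphatic vessels, pericytes, adipocytes and immune cells such as macrophages. When milk removal stops, luminal cells die, and macrophages, lysosomal proteases and matrix remodelling take part in involution.

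Since milk protein transcripts define a secreting gland and their levels separated the days, the 250 bases before the start of 4 milk protein genes are shown, from the RefSeq annotation of Sscrofa11.1. CSN1S1 encodes alpha-S1-casein (chr8:66887981-66888230, plus strand), CSN2 beta-casein (chr8:66922637-66922886, minus strand), CSN3 kappa-casein (chr8:67098881-67099130, plus strand) and LALBA alpha-lactalbumin (chr5:79216792-79217041, minus strand). Capitals mark matches to TTCNNNGAA, the palindromic core that STAT proteins bind, which reads the same on both strands.
CSN1S1: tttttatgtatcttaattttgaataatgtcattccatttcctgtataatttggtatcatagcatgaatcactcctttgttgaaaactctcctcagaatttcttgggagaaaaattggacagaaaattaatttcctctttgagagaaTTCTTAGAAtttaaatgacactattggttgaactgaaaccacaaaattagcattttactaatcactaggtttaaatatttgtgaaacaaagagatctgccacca
CSN2: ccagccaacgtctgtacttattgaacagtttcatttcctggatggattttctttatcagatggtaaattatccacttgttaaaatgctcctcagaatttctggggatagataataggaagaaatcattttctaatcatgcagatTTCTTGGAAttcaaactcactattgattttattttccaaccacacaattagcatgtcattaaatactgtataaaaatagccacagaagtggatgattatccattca
CSN3: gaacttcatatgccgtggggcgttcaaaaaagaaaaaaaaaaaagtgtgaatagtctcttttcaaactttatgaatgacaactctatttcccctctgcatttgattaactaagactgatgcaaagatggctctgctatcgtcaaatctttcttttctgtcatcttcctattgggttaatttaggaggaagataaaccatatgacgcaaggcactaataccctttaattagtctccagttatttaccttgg
LALBA: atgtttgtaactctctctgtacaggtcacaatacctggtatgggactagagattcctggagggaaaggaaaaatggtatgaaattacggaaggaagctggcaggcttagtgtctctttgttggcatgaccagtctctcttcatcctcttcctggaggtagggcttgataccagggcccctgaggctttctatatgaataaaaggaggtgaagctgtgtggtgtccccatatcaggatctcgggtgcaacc
The match began 104 bases before the gene start in CSN1S1 and 106 bases before it in CSN2. CSN3 and LALBA held no match in this window. Of 19556 protein-coding genes on placed chromosomes, 6.12% held at least 1 match in a window of this length.

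The libraries differed in depth and in the amount of mitochondrial RNA. Total UMIs were 28163037 and 19903735 at L0 and 23336967 and 39934341 at L20. Mitochondrial transcripts made up 0.713% and 0.782% of UMIs at L0 and 5.25% and 2.19% at L20, so both L20 libraries lay above both L0 libraries. Of 13 mitochondrial genes, 3 met the unadjusted limit described below as higher at L20 in sums over all nuclei (ND1, ND2 and ATP8) and 0 as lower, the list median being 2.02 on the log2 scale, and the part of mitochondrial RNA in the results below was not tested. Transcripts of milk proteins, which a secreting gland carries in abundance, were scarce in both gland libraries labelled L20, as described below. The day label rests on the submitters' records, and L20 below means the libraries so labelled. Between 52 and 205 barcodes were shared by any pair of the 10 libraries. Nothing in the counts pointed to a library deposited more than once, since the counts of replicates differed by more than sampling noise. Levels are given below as CPM, UMIs scaled to a common library total and then with TMM, a factor per library that centres most genes. Log2 fold changes are L20 minus L0 from edgeR's quasi-likelihood test with its standard error (SE), in which the 10 gland libraries shared 1 estimate of the spread. A gene was called at a Benjamini-Hochberg adjusted p under 0.05 and an absolute log2 fold change over 1.

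Stromal nuclei made up 3.93% (exact 95% interval 3.58 to 4.30) and 1.44% (1.21 to 1.71) of nuclei at L0, and 9.16% (8.67 to 9.67) and 42.7% (41.9 to 43.5) at L20. Both L20 libraries lay above both L0 libraries, yet the L20 libraries lay further from each other than L20 replicate 1 lay from L0. The means were 2.69% ± 1.76 (SD, n = 2) at L0 and 25.9% ± 23.7 (SD, n = 2) at L20, and an exact two-sided permutation test gave p = 0.333, the smallest value that 2 against 2 libraries allow. The difference of 23.2 percentage points was 6.47 without L20 replicate 2 and 40.0 without L20 replicate 1. After each nucleus was thinned to 500 UMIs the shares were 2.24% and 0.722% at L0 and 5.07% and 23.4% at L20. The intervals cover counting error only. At the edge of the rule, 136 and 50 nuclei at L0 and 468 and 1365 at L20 carried exactly 2 UMIs of the 6 genes, and 562 and 173 at L0 and 1776 and 2860 at L20 fell just outside with 1 UMI and none of EPCAM. Among stromal nuclei, the 3 fibroblast genes DCN, COL1A1 and COL1A2 led the 6 genes in 61.2% and 45.6% at L0 and in 69.3% and 73.5% at L20. Nuclei marked only by the vessel genes PTPRB (blood endothelium), MMRN1 (lymphatic endothelium) and RGS5 (pericytes) were 31.9% and 51.5% of stromal nuclei at L0 and 17.7% and 13.5% at L20. Both shares are parts of the same stromal total and come from the rule's own genes, so they are a description. As a share of all nuclei, vessel-marked nuclei were 1.25% and 0.744% at L0 and 1.62% and 5.76% at L20, higher in both L20 libraries.

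**Figure D1:**
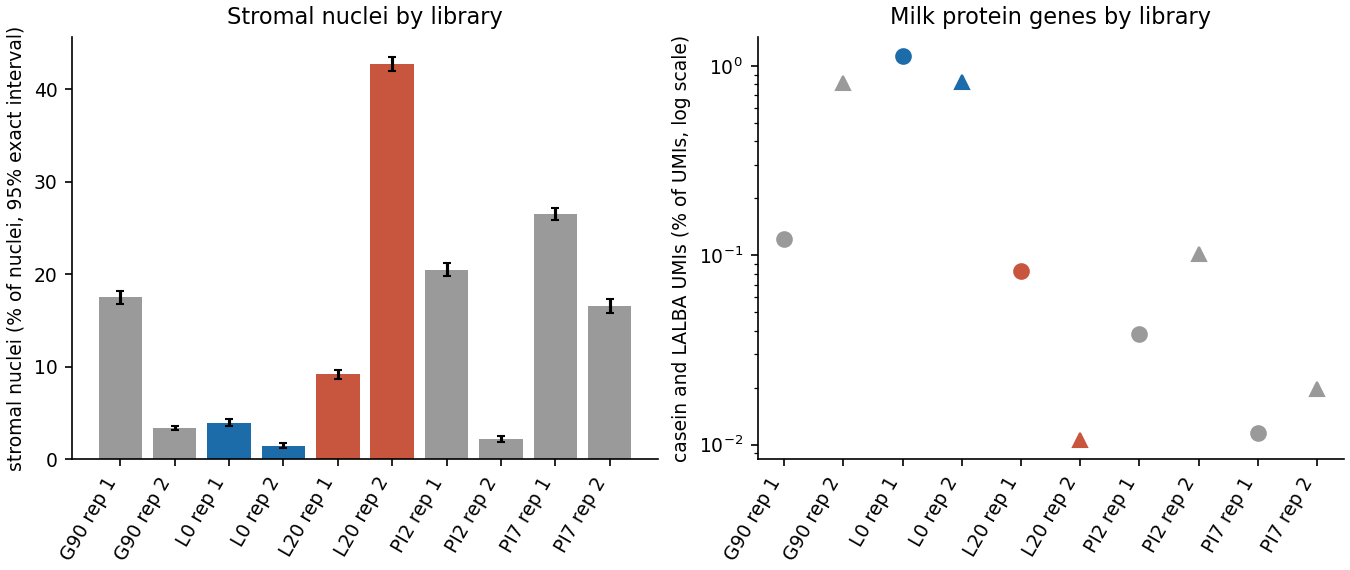
Left, stromal nuclei as a percentage of all nuclei in each of the 10 gland libraries, with bars for the share and whiskers for the exact 95% interval (counting error). Right, UMIs of CSN1S1, CSN2, CSN3 and LALBA as a percentage of total UMIs, on a log axis, with circles for replicate 1 and triangles for replicate 2. L0 is blue, L20 red and the other stages grey. L20 replicate 2 has the highest stromal share of the 10 libraries (42.7%) and the lowest milk gene share (0.0106%).

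Summed over CSN1S1, CSN2, CSN3 and LALBA, L0 glands had 1.13% and 0.827% of their UMIs in milk protein genes, and L20 glands had 0.0822% and 0.0106%. Both L20 values lay below those of both G90 libraries (0.121% and 0.812%). The first lay within the range of the 4 involution libraries (0.0115% to 0.102%), and the second lay below it. In milk cells the same genes took 16.0% of UMIs in the L0 sample and 6.12% in the L20 sample. Free RNA was not measured in the milk samples, so these shares describe libraries and not cells. CSN1S2 was not matched by symbol and is not analysed here.

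CSN1S1 stood at 7877 and 5069 CPM at L0 and at 232 and 46.4 CPM at L20, 46.5 times lower on average. The log2 fold change was -5.54 ± 1.14 (SE), with an edgeR adjusted p of 0.130, so the gene was not called. It was -7.01 without L20 replicate 1 and -4.80 without L20 replicate 2. CSN2 stood at 2427 and 2606 CPM at L0 and at 217 and 3.98 CPM at L20. CSN3 stood at 3001 and 2310.4 CPM at L0 and at 336 and 24.1 CPM at L20. LALBA, the regulatory subunit of lactose synthase, stood at 826 and 679.5 CPM at L0 and at 141 and 0.964 CPM at L20. PAEP, the whey protein beta-lactoglobulin, stood at 6332 and 7618 CPM at L0 and at 574 and 25.5 CPM at L20. For each of these genes the L0 and L20 libraries did not overlap, and L20 replicate 2 was the lowest of the 4. Of all genes tested, 24.7% also lay lower at L20 without overlap. Log2 fold changes of CSN2, CSN3, LALBA and PAEP were -4.51 ± 2.22, -3.88 ± 1.21, -3.41 ± 2.50 and -4.54 ± 1.13 (SE). Without L20 replicate 1 they were -9.19, -6.67, -9.49 and -7.98, and without L20 replicate 2 they were -3.53, -2.98, -2.41 and -3.60.

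Over all nuclei, 22658 genes were tested and edgeR called none, so 0% were called higher and 0% lower at L20, and the lowest adjusted p was 0.0748. An unadjusted p under 0.05 was reached by 2980 genes, and DESeq2 called 655 higher and 582 lower. With the same fold limit and unadjusted p, 1546 genes (6.82%) counted as higher and 1423 (6.28%) as lower. These percentages are the background against which the gene lists below are read, and a gene that meets only the unadjusted limit is described as counted, not as changed. With 2 against 2 libraries, both L20 libraries lay above both L0 libraries in 25.8% of the genes tested and below them in 24.7%. The median log2 fold change of all genes was 0.23 with TMM scaling and 0.75 with scaling by library totals alone, and the latter turned the counted genes into 2771 higher and 670 lower, or 80.5% higher in place of 52.1%. Directions in all nuclei are therefore relative to the bulk of genes. In sums over all nuclei, more nuclei of a type and more RNA per nucleus cannot be told apart.

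The 8 genes with the lowest p among those higher at L20 were TREH, ENPP1, TYROBP, CPSF6, CTSL, CTSD, CD163 and IFI30. TREH, encoding the disaccharidase trehalase (chr9:45949891-45965372), stood at 0.356 and 0.519 CPM at L0 and at 45.2 and 27.8 CPM at L20, 83.5 times higher on average, with an edgeR adjusted p of 0.0748. ENPP1, an ectonucleotidase that makes pyrophosphate (chr1:31724290-31796594), stood at 18.9 and 12.1 CPM at L0 and at 535 and 545 CPM at L20. Its L20 libraries were nearly equal in this sum, and the part of stromal nuclei in its level was not tested. CPSF6, a pre-mRNA cleavage factor subunit, stood at 4.09 and 1.88 CPM at L0 and at 105 and 212 CPM at L20. Log2 fold changes of TREH, ENPP1 and CPSF6 were 6.39 ± 0.76, 5.12 ± 0.73 and 5.72 ± 0.86 (SE).

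The other 5 genes are known from macrophages and lysosomes. CD163, the haemoglobin scavenger receptor of macrophages (chr5:63300200-63334497), stood at 16.1 and 7.85 CPM at L0 and at 180.4 and 560.4 CPM at L20, with a log2 fold change of 4.95 ± 0.80 (SE). TYROBP, a signalling adaptor of myeloid cells, stood at 1.47 and 0.973 CPM at L0 and at 28.2 and 23.1 CPM at L20. CTSD, encoding the lysosomal protease cathepsin D (chr2:1188548-1197642), stood at 32.4 and 15.7 CPM at L0 and at 608 and 217 CPM at L20. Its relative CTSL, cathepsin L, stood at 2.27 and 1.69 CPM at L0 and at 40.8 and 31.2 CPM at L20. IFI30, a lysosomal thiol reductase of antigen-presenting cells, stood at 4.04 and 2.27 CPM at L0 and at 38.2 and 28.3 CPM at L20. The rule that named the 8 genes required that L0 and L20 libraries did not overlap.

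The 8 genes with the lowest p among those lower at L20 were NPAS3, POC1A, PKP2, CD24, PDE7A, ARHGEF38, PAPLN and LRIG1. NPAS3, a transcription factor of the bHLH-PAS family (chr7:65924986-66800820), stood at 711 and 725 CPM at L0 and at 120.1 and 101 CPM at L20, 6.48 times lower on average. PKP2, a plakophilin of desmosomes that join epithelial cells, stood at 318 and 476 CPM at L0 and at 50.1 and 37.2 CPM at L20. CD24, a surface glycoprotein of luminal epithelium, stood at 39.4 and 71.4 CPM at L0 and at 6.05 and 6.51 CPM at L20. Replicates of NPAS3 lay close together on each day compared with the gap between the days, while those of PKP2 and CD24 lay further apart at L0. All 8 genes were picked among those without overlap. LRIG1, an inhibitor of ERBB receptor signalling, stood at 419 and 322 CPM at L0 and at 44.1 and 64.9 CPM at L20. PAPLN, encoding the matrix glycoprotein papilin (chr7:96584894-96622487), stood at 191 and 276 CPM at L0 and at 16.0 and 7.75 CPM at L20, 19.7 times lower on average. PDE7A, a cyclic AMP phosphodiesterase, stood at 1156 and 898 CPM at L0 and at 180.1 and 93.9 CPM at L20. POC1A, a centriole protein gene, had a mean at L0 8.17 times that at L20, and ARHGEF38, a guanine nucleotide exchange factor gene, stood at 894 and 858 CPM at L0 and at 110 and 48.7 CPM at L20. Adjusted p of the 8 genes (edgeR) lay between 0.109 and 0.113.

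**Figure D2:**
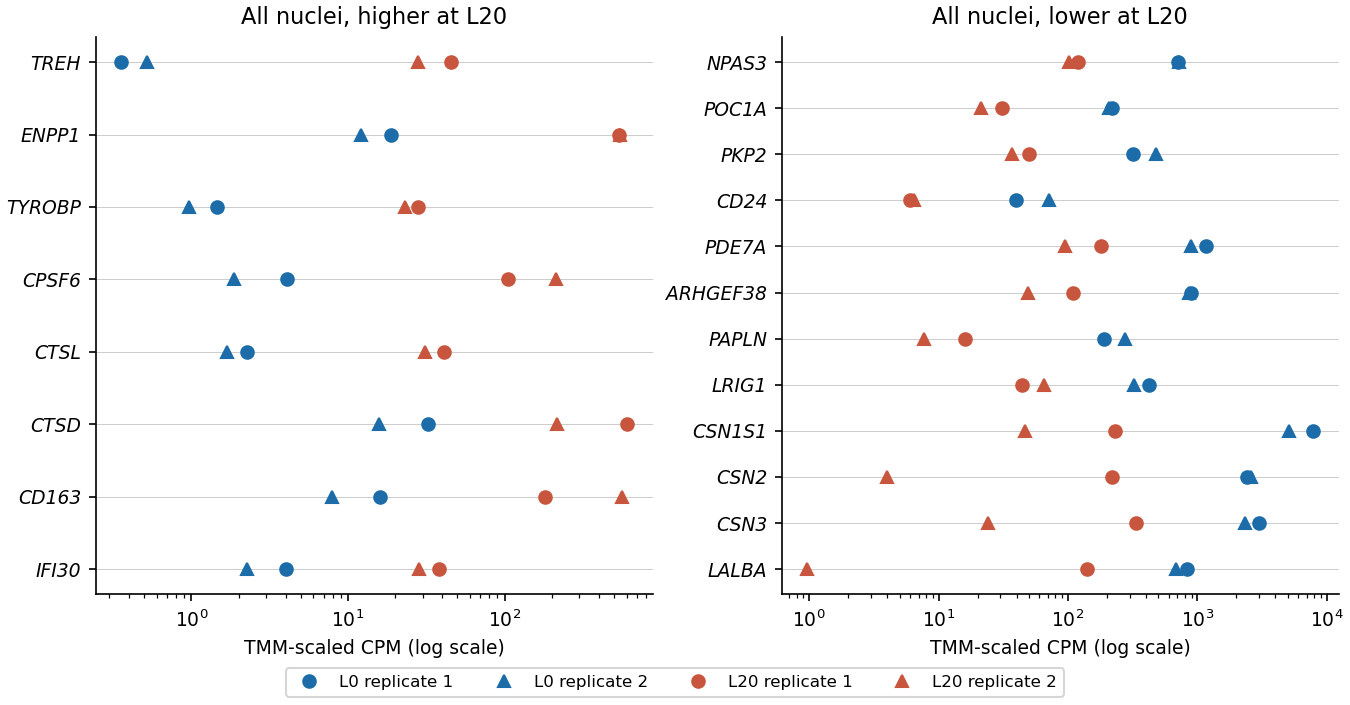
TMM-scaled CPM (log axis) of named genes in sums over all nuclei, 1 point per library, with L0 in blue, L20 in red, circles for replicate 1 and triangles for replicate 2. Left, the 8 genes with the lowest p among those higher at L20; right, the 8 among those lower at L20, and the casein genes with LALBA. The 16 genes were picked among those without overlap, and CSN1S1 has the highest L0 levels of the genes in the right panel (7877 and 5069 CPM).

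Of 20 tested genes of milk fat synthesis and secretion, 0 counted as higher and 5 as lower (ACSS2, GPAM, INSIG1, SREBF1 and FABP3), against a background of 6.28% lower. Their median log2 fold change was -0.89 beside 0.23 over all genes (-0.35 beside 0.75 with library totals). XDH, a protein of the milk fat globule membrane, stood at 4384 and 2859.8 CPM at L0 and at 929.9 and 38.6 CPM at L20. ACSS2, which activates acetate, stood at 601 and 667 CPM at L0 and at 221 and 66.8 CPM at L20. PLIN2, a lipid droplet coat protein, stood at 711 and 867 CPM at L0 and at 703 and 162 CPM at L20. FASN, fatty acid synthase, stood at 281 and 218 CPM at L0 but at 622 and 38.6 CPM at L20, so its L20 libraries lay on either side of L0. Its log2 fold change was -2.58 without L20 replicate 1 and 1.32 without L20 replicate 2.

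Of 12 tested genes of lactose synthesis and ion transport, 1 counted as higher (SLC12A2) and 5 as lower (ATP2C2, SLC30A4, SLC34A2, ATP2B2 and B4GALT1). The backgrounds were 6.82% and 6.28%, and the list median was -0.29 with TMM but 0.06 with library totals. B4GALT1, the catalytic subunit of lactose synthase, stood at 531 and 747 CPM at L0 and at 231 and 86.7 CPM at L20. SLC34A2, a phosphate transporter, stood at 454 and 747 CPM at L0 and at 60.3 and 31.1 CPM at L20. ATP2C2, a Golgi calcium pump, stood at 594 and 212 CPM at L0 and at 98.9 and 18.5 CPM at L20. These 3 genes did not overlap between days, and 24.7% of all genes tested also lay lower at L20 without overlap. UGP2, which makes UDP-glucose, overlapped, with 903 and 423 CPM at L0 and 904 and 116 CPM at L20.

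Of 16 tested genes of the hormone axis of lactation, 0 counted as higher and 5 as lower (ELF5, ERBB4, STAT5B, ESR1 and IGF1R). The background was 6.28% lower, and the median log2 fold change of the list was -0.95. With library totals 3 counted as lower, beside 670 of the 22658 genes tested, and the median was -0.49. STAT5B, which carries the prolactin signal to the nucleus, stood at 2222 and 1999 CPM at L0 and at 889.6 and 190.0 CPM at L20. ELF5, a transcription factor of the alveolar lineage, stood at 1544 and 1445 CPM at L0 and at 429.8 and 80.9 CPM at L20. PRLR, the prolactin receptor, stood at 727 and 884 CPM at L0 and at 258 and 202 CPM at L20. IGF1R, the receptor of insulin-like growth factor 1, stood at 971 and 1075 CPM at L0 and at 387 and 323 CPM at L20. None of these 4 genes overlapped between days, and 24.7% of all genes tested also lay lower at L20 without overlap. Log2 fold changes of the 4 genes lay between -2.55 ± 0.97 (ELF5) and -1.53 ± 0.49 (IGF1R) (SE). Without L20 replicate 1 ELF5 was at -4.09 and STAT5B at -3.36, and without L20 replicate 2 they were at -1.79 and -1.24. Of 8 luminal markers, 1 counted as higher (KRT8) and 1 as lower (ELF5), with a median of -0.70 (-0.36 with library totals). Their summed level, which includes ELF5 and PRLR, was 2800.1 and 2903 CPM at L0 and 1618 and 441 CPM at L20.

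Of 16 tested genes of involution, 4 counted as higher at L20 (CLU, CTSL, CTSB and CTSD) and 0 as lower, against a background of 6.82% higher. CLU, the chaperone clusterin, stood at 119.7 and 32.4 CPM at L0 and at 1843 and 289 CPM at L20. STAT3, a transcription factor of involution, stood at 558 and 617 CPM at L0 and at 1032 and 159.6 CPM at L20. LIFR, a receptor that signals to STAT3, stood at 396 and 332 CPM at L0 and at 164 and 253 CPM at L20. STAT3 thus showed no common direction at L20, with a log2 fold change of 0.02 ± 0.80 (SE). Of 12 genes of the unfolded protein response none counted in either direction, and of 21 cell cycle genes 1 counted as higher (MCM3) and none as lower. With library totals the counts of higher genes were 3 for the unfolded protein response, 6 for the cell cycle and 7 for involution. Over all 22658 genes tested, 2771 counted as higher with that scaling, more than the 1546 with TMM.

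All 9 macrophage markers counted as higher at L20, against a background of 6.82%, and lay without overlap, against 25.8%, with a median log2 fold change of 3.0. Their summed level was 82.7 and 57.6 CPM at L0 and 427 and 1191 CPM at L20. Beside CD163, MRC1, the mannose receptor, stood at 18.8 and 10.2 CPM at L0 and at 39.4 and 281 CPM at L20. ITGAM, an integrin of myeloid cells, stood at 7.82 and 9.34 CPM at L0 and at 64.7 and 83.1 CPM at L20. CSF1R, the receptor of macrophage growth factor CSF1, stood at 7.20 and 9.01 CPM at L0 and at 54.6 and 75.1 CPM at L20. These 4 genes had edgeR adjusted p between 0.109 and 0.173. Of 10 markers of T and NK cells 2 counted as higher (NKG7 and IL7R), of 7 of B and plasma cells 0, and none of either list as lower.

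Of 10 adipocyte markers, 5 counted as higher (PLIN1, LIPE, PCK1, PPARG and ADIPOQ) and 0 as lower, against a background of 6.82% higher. With library totals 8 counted as higher, beside 2771 of the 22658 genes tested. PPARG, the master regulator of fat cell differentiation, stood at 15.5 and 14.7 CPM at L0 and at 35.5 and 191 CPM at L20. ADIPOQ, adiponectin, stood at 2.22 and 1.36 CPM at L0 and at 6.58 and 113 CPM at L20. PNPLA2, a triglyceride lipase, stood at 55.8 and 38.2 CPM at L0 and at 112 and 46.7 CPM at L20. LEP, leptin, lay in the other direction, with 47.1 and 54.5 CPM at L0 and 17.9 and 8.85 CPM at L20. The adipocyte genes PPARG and ADIPOQ were highest in L20 replicate 2, the library with the most stromal nuclei, and without it their log2 fold changes were 1.24 and 1.87 in place of 2.91 and 5.05.

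Of 22 tested genes of the fibrillar and interstitial matrix, 16 counted as higher at L20 and 0 as lower, against a background of 6.82%, and their median log2 fold change was 2.65. COL3A1, a fibrillar collagen, stood at 81.6 and 21.0 CPM at L0 and at 199.7 and 944 CPM at L20. FN1, fibronectin, stood at 48.3 and 9.21 CPM at L0 and at 497 and 359 CPM at L20. COL5A2, a minor fibrillar collagen, and VCAN, the proteoglycan versican, overlapped between days, with log2 fold changes of 1.51 ± 0.79 and 0.27 ± 0.45 (SE). Of 12 basement membrane genes 5 counted as higher, of 16 matrix turnover genes 8, of 23 stromal growth factors 12 (with PDGFA and PDGFC as lower), and of 19 chemokines and receptors 7. The 8 fibroblast markers, 3 of which are genes of the stromal rule, all counted as higher, and their summed level was 375 and 111 CPM at L0 and 1074 and 4245 CPM at L20. With the stromal nuclei left out the log2 fold change was 2.51 in place of 3.48 for COL3A1, 4.46 in place of 3.89 for FN1 and 0.26 in place of 1.51 for COL5A2. The median of the 22 matrix genes was 1.74 in these other nuclei, in place of 2.65. The other nuclei still include those with 1 UMI of the 6 genes or with an EPCAM UMI. Outside the genes of the rule, marker medians there were 2.51 for fibroblasts, 1.51 for lymphatic endothelium, 1.30 for blood endothelium and 1.14 for mural cells. The part of stromal nuclei missed by the rule was not tested. In all nuclei without L20 replicate 2, COL3A1 was at 1.96, FN1 at 4.11 and COL5A2 at 0.14. Without L20 replicate 1 they were at 4.32, 3.76 and 2.32. Of the genes of the stromal rule, COL1A1 stood at 59.2 and 15.5 CPM at L0 and at 241 and 819.9 CPM at L20, and PTPRB at 24.0 and 13.3 CPM at L0 and at 29.0 and 58.8 CPM at L20.

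**Figure D3:**
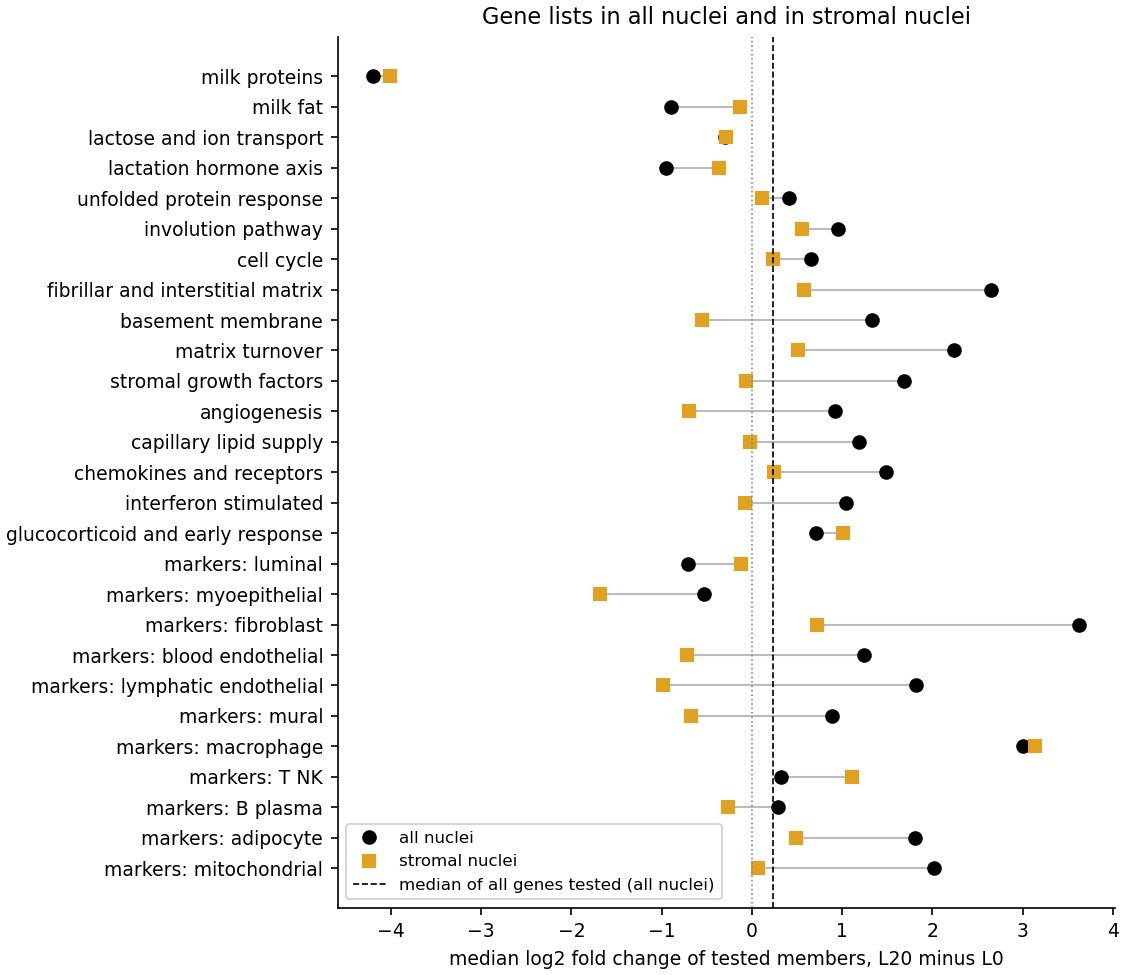
Median log2 fold change (L20 minus L0) of the tested members of each gene list, in sums over all nuclei (black circles) and over stromal nuclei (yellow squares), without the genes of the stromal rule in the latter. The dashed line is the median of all genes tested in all nuclei (0.23). The fibrillar matrix list has a median of 2.65 in all nuclei and 0.58 in stromal nuclei, and the macrophage list has 3.0 and 3.14. Stromal nuclei were chosen on both days by fibroblast and vessel genes and not by macrophage genes. The part of this choice in the medians was not tested.

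In stromal nuclei the sums held 898226 and 217973 UMIs at L0 and 1900224 and 19466894 at L20, so L0 replicate 2 carried the least information. Of 15354 tested genes edgeR called none, 0% higher and 0% lower, with a lowest adjusted p of 0.272. An unadjusted p under 0.05 was reached by 1106 genes, and DESeq2 called 32 higher and 77 lower. With the fold limit and unadjusted p, 648 genes (4.22%) counted as higher and 422 (2.75%) as lower, and the median log2 fold change of all genes was 0.24. Both L20 libraries lay above both L0 libraries in 21.4% of genes and below them in 13.6%. The gene lists in stromal nuclei below are read against these percentages. Milk protein transcripts were also found in stromal nuclei. At least 1 UMI of the casein genes or LALBA was found in 93.1% and 77.9% of stromal nuclei at L0 and in 33.4% and 3.36% at L20. In the other nuclei the shares were 98.1% and 95.1% at L0 and 43.3% and 7.89% at L20, at median depths of 2018, 1644, 1416 and 1447 UMIs against 1584, 1207, 1295.5 and 2478 UMIs in stromal nuclei. An EPCAM UMI was seen in 2947 of the 11477 and 1663 of the 9413 nuclei at L0, so that 0 UMIs of EPCAM does not show a nucleus to be non-epithelial, and the source of the milk transcripts was not tested.

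The 8 genes with the lowest p among those higher at L20 in stromal nuclei were SLC11A1, CD163, ENPP1, GFPT2, ITGAM, ITGB2, CTSL and SH3KBP1. SLC11A1, a metal transporter of macrophage phagosomes (chr15:120434100-120446396), had 0 UMIs in both L0 libraries and stood at 61.5 and 60.6 CPM at L20. Against the limit of 3 UMIs over both L0 libraries this is at least 21.5-fold higher. CD163 stood at 11.9 and 14.1 CPM at L0 and at 135 and 401 CPM at L20, and ITGAM at 8.32 and 4.68 CPM at L0 and at 59.2 and 68.5 CPM at L20. ITGB2, the partner of ITGAM, and CTSL had 1 and 0 UMIs at L0, and stood at 60.9 and 32.4 CPM (ITGB2) and at 37.6 and 30.0 CPM (CTSL) at L20. These 5 genes are known from myeloid cells. Of the other 3, ENPP1 stood at 124 and 60.9 CPM at L0 and at 453 and 771 CPM at L20. GFPT2, which starts hexosamine synthesis, stood at 4.75 and 4.68 CPM at L0 and at 80.9 and 69.5 CPM at L20. SH3KBP1, an adaptor of receptor endocytosis, stood at 33.3 and 32.8 CPM at L0 and at 137 and 136 CPM at L20. Adjusted p of the 8 genes (edgeR) lay between 0.272 and 0.305.

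Of 9 macrophage markers, 5 counted as higher in stromal nuclei (MSR1, ITGAM, CSF1R, CD68 and CD163) and 0 as lower, against a background of 4.22% higher. Their median log2 fold change was 3.14. Their summed level was 151 and 98.4 CPM at L0 and 351 and 944 CPM at L20. CSF1R stood at 4.75 and 4.68 CPM at L0 and at 40.4 and 55.1 CPM at L20. Its L0 levels, like those of GFPT2 and ITGAM, rest on few UMIs, since the L0 sums held 898226 and 217973 UMIs. MRC1 overlapped between days, with 71.3 and 56.2 CPM at L0 and 42.1 and 252 CPM at L20. Nuclei with no UMI of the macrophage or T and NK markers were 76.5% and 88.2% of stromal nuclei at L0 and 67.9% and 47.6% at L20, and in sums over those alone edgeR called 0 genes, with 898 at an unadjusted p under 0.05.

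The 8 genes with the lowest p among those lower at L20 in stromal nuclei were ARHGEF38, PIK3C2G, SNTG1, PCDH17, MSTN, CSN1S1, CD24 and PDE7A. ARHGEF38, CD24 and PDE7A were also named in all nuclei, and CSN1S1 is a milk protein gene. ARHGEF38 stood at 201 and 173 CPM at L0 and at 25.6 and 22.1 CPM at L20. PIK3C2G, a class II phosphoinositide kinase gene (chr5:54474623-54849520), stood at 324 and 482 CPM at L0 and at 17.1 and 25.9 CPM at L20, 18.8 times lower on average. MSTN, myostatin, a TGF-beta family member (chr15:94623526-94628440), stood at 114 and 74.9 CPM at L0 and at 5.69 and 1.75 CPM at L20, 25.4 times lower on average. PCDH17, a protocadherin, stood at 310.2 and 234 CPM at L0 and at 46.7 and 76.6 CPM at L20. Its log2 fold change of -2.14 became -0.48 in fibroblast-marked nuclei and -1.23 in vessel-marked nuclei. SNTG1, a syntrophin, stood at 115 and 149.9 CPM at L0 and at 23.9 and 28.9 CPM at L20. CD24 stood at 34.5 and 46.8 CPM at L0 and at 1.71 and 4.32 CPM at L20, and PDE7A at 383 and 342 CPM at L0 and at 111 and 88.1 CPM at L20. CSN1S1 stood at 2063 and 1293 CPM at L0 and at 99.1 and 17.7 CPM at L20. In stromal nuclei 4 of 6 milk protein genes counted as lower (CSN2, CSN1S1, CSN3 and PAEP), against a background of 2.75%. PAEP stood at 8498 and 4403 CPM at L0 and at 467 and 12.9 CPM at L20, CSN2 at 1647 and 1251 CPM at L0 and at 135 and 1.70 CPM at L20, and CSN3 at 1469 and 1059 CPM at L0 and at 216 and 9.35 CPM at L20. Stromal nuclei with no UMI of the casein genes or LALBA numbered 31 and 30 at L0 and 789 and 6325 at L20, and in sums over those edgeR called 0 genes, with 1178 at an unadjusted p under 0.05. There the log2 fold change was -0.38 for PDE7A in place of -1.87, -1.66 for ARHGEF38 in place of -2.98, -1.99 for PIK3C2G in place of -4.20, -1.29 for SNTG1 in place of -2.31 and -2.47 for MSTN in place of -4.90. PCDH17 and CD24 were at -1.85 and -2.85 in place of -2.14 and -3.58. The log2 fold changes were thus smaller in size in nuclei with no UMI of the casein genes or LALBA. The median of all genes was also shifted there, to 0.88 in place of 0.24. The part of that shift in the smaller values was not tested, and the L0 sums rest on only 31 and 30 nuclei. PAEP was not part of that rule and was at -3.59 there in place of -4.76. The part of milk transcripts in these differences was not tested.

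**Figure D4:**
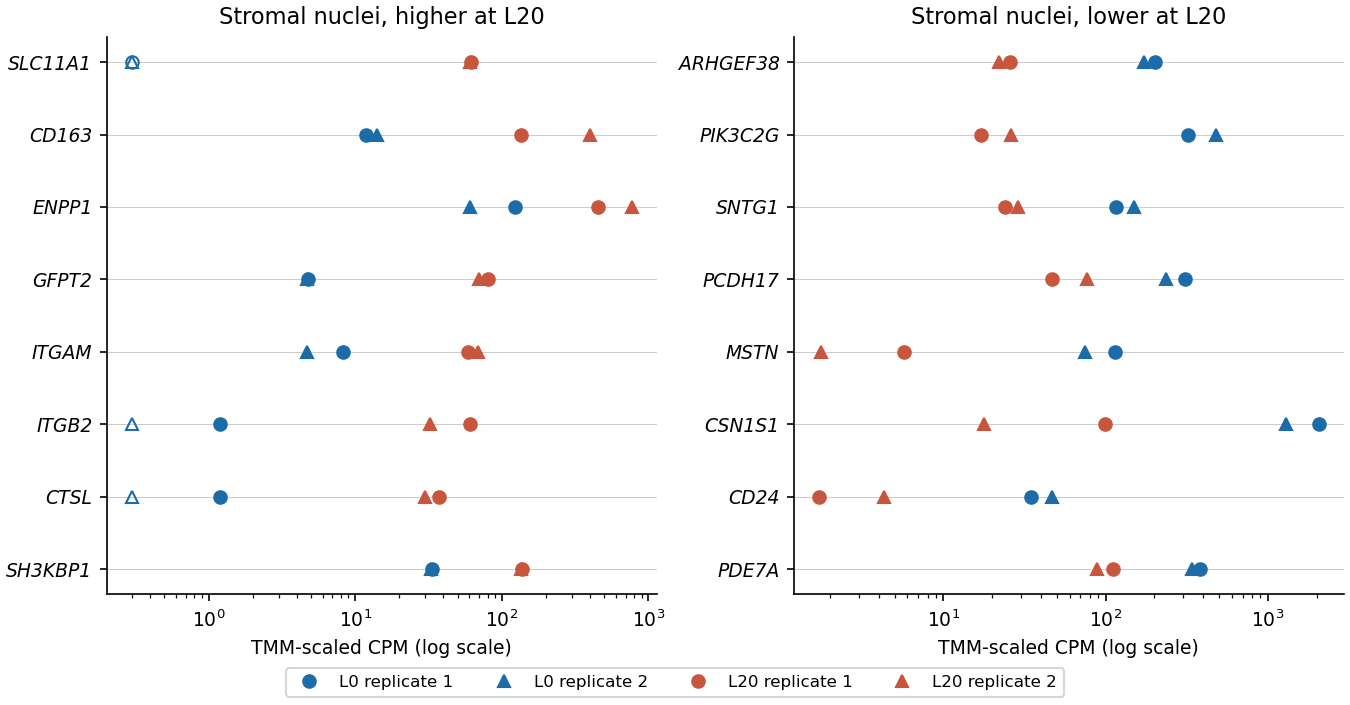
TMM-scaled CPM (log axis) of the 8 genes with the lowest p in each direction in sums over stromal nuclei, 1 point per library, with L0 in blue, L20 in red, circles for replicate 1 and triangles for replicate 2. Open points at the left edge are libraries with 0 UMIs. The genes were picked among those without overlap between the days, and SLC11A1 has 0 UMIs in both L0 libraries.

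Of 22 fibrillar and interstitial matrix genes, 3 counted as higher (LUM, THBS2 and COL6A3) and 0 as lower, against a background of 4.22% higher. Their median log2 fold change was 0.58 beside 0.24 over all genes. Stromal nuclei were chosen on both days by fibroblast and vessel genes, and the part of this choice in these values was not tested. COL3A1 stood at 1485 and 1039.9 CPM at L0 and at 1659 and 2516 CPM at L20. COL6A3, a microfibril-forming collagen, stood at 525 and 309 CPM at L0 and at 1049.5 and 1048 CPM at L20, and FN1 at 742 and 258 CPM at L0 and at 1119 and 787 CPM at L20. In these 3 genes both L20 libraries lay above both L0 libraries, with log2 fold changes of 0.72 ± 0.46, 1.32 ± 0.48 and 0.92 ± 0.68 (SE). Such an order held for 21.4% of the genes tested in stromal nuclei. FBN1, fibrillin of the microfibrils, overlapped, with 858 and 1007 CPM at L0 and 306 and 1123 CPM at L20.

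Of 11 tested basement membrane genes, 0 counted as higher and 3 as lower (LAMA4, NID2 and COL18A1), and the median log2 fold change was -0.55. The background in stromal nuclei, also for the lists that follow, was 4.22% higher and 2.75% lower. COL4A1, a collagen of vessel basement membranes, stood at 1407 and 1049 CPM at L0 and at 680.5 and 457 CPM at L20. LAMA4, a laminin chain of vessels, stood at 868 and 712 CPM at L0 and at 239.7 and 526 CPM at L20. COL4A2 and HSPG2, the proteoglycan perlecan, overlapped between days, with log2 fold changes of -0.31 ± 0.65 and -0.55 ± 0.57 (SE). Of 20 angiogenesis genes, 0 counted as higher and 4 as lower (ANGPT1, ANGPT2, VEGFC and APLNR), with a median log2 fold change of -0.70. In all nuclei 3 of the 20 counted as higher (DLL4, TEK and NRP2) and 0 as lower, with a median of 0.92. Of 9 blood endothelial markers, 0 counted as higher and 1 as lower (PECAM1). PECAM1, an adhesion molecule of endothelium, stood at 689 and 810.4 CPM at L0 and at 306 and 340.0 CPM at L20. VWF, the von Willebrand factor, stood at 424 and 440.3 CPM at L0 and at 312 and 131 CPM at L20, and EMCN, a sialomucin of capillaries and veins, at 218 and 276 CPM at L0 and at 109.9 and 153 CPM at L20. CDH5, the cadherin of endothelium, overlapped, with 182 and 239 CPM at L0 and 204 and 52.2 CPM at L20. The shares of fibroblast-marked and vessel-marked nuclei in the stromal sums differed between the days, and their part in these differences was not tested. In sums over vessel-marked nuclei alone, which were chosen by the vessel genes of the rule, the differences of these 4 genes were smaller. PECAM1 went from -1.21 in all stromal nuclei to -0.38 on the log2 scale, VWF from -0.97 to -0.28, EMCN from -0.90 to -0.0020 and CDH5 from -0.71 to -0.11. COL4A1 stood at -1.20 and LAMA4 at -0.75 there, beside -1.11 and -1.04 in all stromal nuclei. In vessel-marked nuclei edgeR called 0 genes, with 869 at an unadjusted p under 0.05.

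Of 23 stromal growth factor genes, 5 counted as higher (IGFBP6, TGFB2, WNT2, FGF10 and FGF1) and 3 as lower (IGFBP7, HGF and PDGFB), against backgrounds of 4.22% and 2.75%. IGFBP7, a binding protein made by vessels, stood at 1355 and 1522 CPM at L0 and at 513 and 225 CPM at L20, with a log2 fold change of -1.96 ± 0.51 (SE). SFRP2, a secreted WNT antagonist, stood at 1334 and 965 CPM at L0 and at 1360.4 and 260.1 CPM at L20. PDGFD, a platelet-derived growth factor, and FGF2, a fibroblast growth factor, overlapped between days, with log2 fold changes of -0.94 ± 0.62 and -0.17 ± 0.56 (SE).

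Of 14 genes of capillary lipid supply, 2 counted as higher (ANGPTL4 and LPL) and 2 as lower (FABP5 and FABP4) in stromal nuclei, against backgrounds of 4.22% and 2.75%. In all nuclei 4 counted as higher (FABP5, PPARG, ANGPTL4 and FABP4) and 1 as lower (CD36). FABP4 and FABP5 thus pointed in opposite directions, at -1.85 and -1.96 in stromal nuclei and at 2.89 and 2.36 in other nuclei. The interaction gave differences of -4.32 ± 0.79 and -4.30 ± 0.79 (SE) with edgeR adjusted p of 0.00348 and 0.00367. Both genes were singled out after their values were seen, and their interaction was not refitted under the alternatives. The stromal value of FABP5 became -1.19 in vessel-marked nuclei and 0.26 in fibroblast-marked nuclei, and FABP4 was not refitted there. CD36, a fatty acid receptor, stood at 681 and 669.8 CPM at L0 and at 146 and 440.3 CPM at L20. FABP5, a fatty acid carrier, stood at 206 and 614 CPM at L0 and at 143 and 66.2 CPM at L20. ANGPTL4, an inhibitor of lipoprotein lipase, stood at 88.0 and 84.3 CPM at L0 and at 560.3 and 125 CPM at L20. LPL, the lipase itself, stood at 77.3 and 79.6 CPM at L0 and at 49.0 and 503 CPM at L20. The L20 libraries lay on either side of L0 for LPL, whose log2 fold change was 1.82 ± 0.81 (SE) and, without L20 replicate 2, -0.77.

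Of 14 tested genes of the glucocorticoid and early response, 3 counted as higher in stromal nuclei (FKBP5, FOS and EGR1) and 0 as lower. The background was 4.22% higher, and the list had a median log2 fold change of 1.01. FOS, an immediate early transcription factor, stood at 88.0 and 131 CPM at L0 and at 750.0 and 285 CPM at L20. FKBP5, a co-chaperone induced by glucocorticoids, stood at 372 and 117 CPM at L0 and at 341 and 1325 CPM at L20, and overlapped. ZBTB16, also induced by glucocorticoids, and HSP90AA1, a chaperone of the glucocorticoid receptor, overlapped too, with log2 fold changes of 0.71 ± 0.46 and -0.52 ± 0.45 (SE).

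Of 8 myoepithelial markers, 5 counted as lower in stromal nuclei (MYH11, ACTA2, MYLK, CNN1 and OXTR) and 0 as higher, against a background of 2.75% lower. Their median log2 fold change was -1.68. ACTA2, smooth muscle actin, stood at 530.1 and 267 CPM at L0 and at 32.5 and 19.9 CPM at L20. MYH11, smooth muscle myosin, stood at 574 and 244 CPM at L0 and at 37.6 and 52.4 CPM at L20. MYLK, the kinase that activates it, stood at 166 and 122 CPM at L0 and at 64.9 and 49.5 CPM at L20. Pericytes and vessel smooth muscle share these 3 genes. In vessel-marked nuclei their log2 fold changes were -3.29, -1.91 and -0.61, beside -3.96, -3.19 and -1.35 in all stromal nuclei. In stromal nuclei with no casein or LALBA UMI they were -2.78, -2.23 and -0.25. KRT14, a keratin of myoepithelial cells that pericytes and vessel smooth muscle lack, overlapped. It stood at 103 and 70.3 CPM at L0 and at 592 and 19.3 CPM at L20.

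Of 9 adipocyte markers, 4 counted as higher in stromal nuclei (PLIN1, LIPE, PLIN4 and ADIPOQ) and 0 as lower, against a background of 4.22% higher. Their median log2 fold change was 0.49. ADIPOQ had 0 UMIs in both L0 libraries and 24 and 2161 UMIs at L20, which is at least 4.81-fold higher in L20 replicate 1 (13.7 CPM) and at least 39.0-fold higher in L20 replicate 2 (111 CPM) against the same limit of 3 UMIs.

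Whether the change between the days differed between stromal and other nuclei of the same glands was tested with an interaction term, with the library as a block. Of 22671 genes tested, 157 (0.693%) had a more positive change in stromal nuclei and 452 (1.99%) a more negative one by the adjusted p of edgeR. Mitochondrial genes were among the latter, with 11 of 13 called, differences of -2.44 to -1.93 and edgeR adjusted p of 0.00123 to 0.00828. In other nuclei these 11 genes had log2 fold changes of 1.83 to 2.75, and in stromal nuclei of -0.18 to 0.41. Summed over the 13 genes, stromal nuclei stood at 32433 and 33094 CPM at L0 and at 48697 and 17840 CPM at L20. The L20 libraries thus lay on either side of L0. All nuclei stood at 8916 and 10086 CPM at L0 and at 59130 and 15627 CPM at L20. The 11 genes were singled out after their values were seen, and the part of mitochondrial RNA in the other calls was not tested. The 609 genes became 334 without L0 replicate 2, 1421 without L20 replicate 1 and 324 without L20 replicate 2. The other nuclei include the nuclei just outside the stromal rule. These were 562 of 11026 and 173 of 9277 other nuclei at L0. At L20 they were 1776 of 11743 and 2860 of 8778, and their part in the result was not tested.

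LGALS3, galectin-3, a lectin abundant in macrophages (chr1:184478639-184496155), stood at 2.55 and 1.98 CPM in other nuclei at L0 and at 87.6 and 214 CPM at L20. In stromal nuclei it stood at 49.9 and 55.8 CPM at L0 and at 117 and 239 CPM at L20. The change differed by -4.21 ± 0.45 (SE) on the log2 scale, with an edgeR adjusted p of 2.7e-05. FN1 stood at 23.1 and 6.15 CPM in other nuclei at L0 and at 417 and 204 CPM at L20, with a difference of -3.48 ± 0.38 (SE) from the change in stromal nuclei. NRP2, a co-receptor of semaphorins and VEGFC, stood at 12.8 and 12.7 CPM in other nuclei at L0 and at 52.0 and 135 CPM at L20, but at 163 and 206 CPM and at 123 and 184 CPM in stromal nuclei. FLNA, an actin crosslinker, and TMEM144, a membrane protein, had differences of -2.80 ± 0.38 and -3.36 ± 0.47 (SE). In these 5 genes the change between the days was more positive in other nuclei.

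MGP, matrix Gla protein, an inhibitor of calcification (chr5:57665272-57669360), stood at 3255 and 2025 CPM in other nuclei at L0 and at 90.8 and 113 CPM at L20. In stromal nuclei it stood at 2108 and 1209.7 CPM at L0 and at 596 and 494 CPM at L20. The change was thus 3.11 ± 0.43 (SE) more positive in stromal nuclei. TGFBR3, the betaglycan co-receptor of TGF-beta, stood at 735 and 908 CPM in other nuclei at L0 and at 118 and 295 CPM at L20, but at 426 and 528 CPM and at 327 and 728 CPM in stromal nuclei. PTPRT, a receptor phosphatase, and NTRK2, a neurotrophin receptor, had differences of 2.53 ± 0.43 and 2.77 ± 0.47 (SE). Each of these 9 genes remained called in the same direction under the 7 alternatives run for the interaction beside the unadjusted p.

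**Figure D5:**
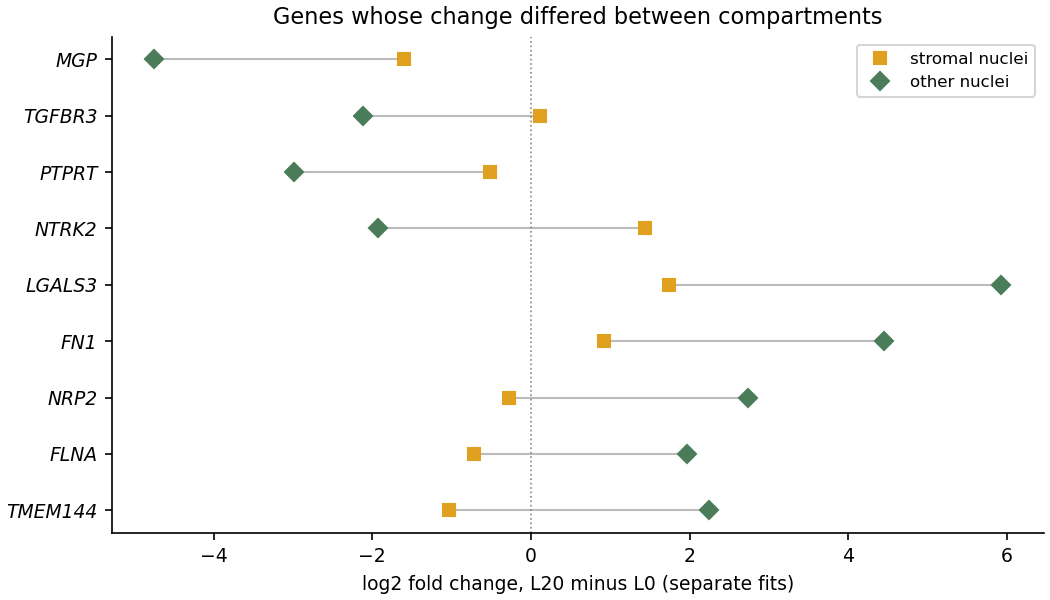
Log2 fold change (L20 minus L0) of the 9 named genes of the interaction in stromal nuclei (yellow squares) and other nuclei (green diamonds), each from its own fit. For LGALS3 the value is 1.74 in stromal and 5.93 in other nuclei, and for MGP it is -1.60 and -4.75.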

How the data were processed

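Single-nucleus RNA sequencing of mammary glands was done on 2 sows at each of 5 stages, and L20 was compared with L0. The authors made the libraries with the GEXSCOPE kit, mapped them to Sscrofa11.1 with CeleScope, and deposited UMI counts per gene and barcode without normalization. No source used here gives the annotation release. Of 28779 gene identifiers, 15476 had a symbol in the files, 645 took one from the reference table and 12658 had none. Gene positions were taken from RefSeq by symbol, for 152 of 155 named symbols.

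Counts were summed per library over nuclei with at least 300 genes. No doublets or free RNA were removed. Sums were fitted with edgeR 4.0.16 in R 4.3.3 (TMM, filterByExpr, estimateDisp, glmQLFit, glmQLFTest) over 10 libraries, with stage as the group. The SE is the log2 fold change divided by the root of F. The 7 genes of the stromal rule were neither tested nor counted in stromal nuclei and in the interaction, which used 20 sums. Shares were compared by exact permutation in scipy 1.17.1. Code for the count tests was tested on simulated data. Each sow is 1 library, so n is 2 per day. Total UMIs ran from 18962138 to 53165191 per gland.

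Members, gene lists and tests were chosen with earlier results of these data known. Named genes were the caseins and LALBA, per table and direction up to 8 genes with a symbol, the lowest p, an absolute log2 fold change over 1, no overlap of L0 with L20 and a mean of at least 10 CPM on 1 of the days, up to 4 members of highest mean CPM in a list, and up to 5 genes per direction in the interaction. Other list members that met the unadjusted limit are named as what a count holds, after their values were seen. Beyond these rules, values are given for FABP4, and interaction values for FABP4, FABP5 and the mitochondrial genes. Alternatives were DESeq2 1.42.0, other scaling, no filter, only the 4 libraries, the replicate number as a block, other rules for nuclei and each library left out. Stromal nuclei with no immune marker UMI were added after the data were seen. Tissue sections were not used here, and 1 gene that the rule selects is not reported here.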

Additional observations from a re-analysis of the deposited data

Results flagged for a closer look

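Between stromal and other nuclei of the same glands, the change from L0 to L20 differed in 609 genes, by the interaction term with the library as a block. The genes named among them were picked out because this difference passed the test. The change was more negative in stromal nuclei for LGALS3 (-4.21 on the log2 scale), FN1 (-3.48), TMEM144 (-3.36), NRP2 (-2.99) and FLNA (-2.80). It was more positive for MGP (3.11), NTRK2 (2.77), PTPRT (2.53) and TGFBR3 (2.17). Of 13 mitochondrial genes, 11 were among those more negative in stromal nuclei, at -2.44 to -1.93. Summed over the 13, the L20 libraries lay on either side of L0 in stromal nuclei and above both L0 libraries in all nuclei. With 2 libraries per day, no single library could be tested for standing apart within its group.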

How the results depend on the processing

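With 2 sows per day, edgeR called 0 genes at L20 in either direction in all nuclei and in stromal nuclei, and this held under most alternatives. In all nuclei, higher and lower genes numbered 655 and 582 with DESeq2, 190 and 135 with no filter on low counts, and 1546 and 1423 with unadjusted p, and without the stromal nuclei there were 3 higher genes. In stromal nuclei they numbered 32 and 77 with DESeq2, 142 and 98 with no filter, and 648 and 422 with unadjusted p, and 1 lower gene was called with only the 4 libraries. Leaving out 1 library gave 0 to 11 higher and 0 to 1 lower genes in all nuclei, and 0 to 11 higher and 0 to 5 lower in stromal nuclei, all of them without L20 replicate 1. The interaction gave 1331 genes with only the 4 libraries, 2813 with unadjusted p, and 324 to 1421 with 1 library left out. The cause of these shifts was not tested. The difference in the stromal share stayed positive in each alternative, from 6.47 to 40.0 percentage points with 1 library left out and 12.7 after thinning, beside 23.2 in the report.

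Labels give replicate numbers 1 and 2 on each day, but no source says that they pair sows. Deviations of same-numbered libraries from their stage means correlated at 0.012 between L0 and L20 in all nuclei and at 0.11 in stromal nuclei, with a range of -0.46 to 0.34 over the stage pairs. The fit with the replicate block called 0 genes higher and 0 lower in both tables.

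Signs turned for these uncalled genes. In all nuclei STAT3 was -0.0053 with DESeq2 and with RLE size factors, and -1.76 to 0.82 with 1 library left out. With 1 library left out, FASN ranged from -2.58 to 1.32, UGP2 from -2.40 to 0.45 and VCAN from -0.14 to 0.71, and VCAN was -0.17 without the stromal nuclei. In fibroblast-marked nuclei CDH5 was 1.30, COL4A2 0.091, EMCN 0.20, FABP5 0.26, HSPG2 0.32 and VWF 0.30. In vessel-marked nuclei FN1 was -0.80, PDGFD 0.067 and SFRP2 0.58. In stromal nuclei with 1 library left out, COL4A2 ranged from -0.89 to 0.014, FBN1 from -1.70 to 0.28, FGF2 from -0.67 to 0.13, KRT14 from -2.20 to 2.63, LPL from -0.77 to 2.69, MRC1 from -0.72 to 1.96, SFRP2 from -2.14 to 0.14 and ZBTB16 from -0.071 to 1.17. The other named genes that were refitted kept their sign in each alternative that gave a value. COL1A1 and PTPRB in all nuclei, ADIPOQ in stromal nuclei, FABP4 and the mitochondrial genes were not refitted. The interaction of FABP5 was not refitted either, and CTSL and GFPT2 had no value in vessel-marked nuclei.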
